A study of Arabidopsis thaliana with 8 samples.

Results

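The double mutant scs1 scs2a was compared with the single mutant ada2b in 12-day-old Arabidopsis thaliana seedlings, gene by gene. A gene was a member of the comparison when its deposited value was 10 or more in at least 2 of the 4 libraries of both mutants, which 21421 of the 32548 genes in the table met. RNA was sequenced with single-end reads of 50 bp from seedlings on Murashige and Skoog plates at 22 °C, with 16 h of light and 8 h of dark. Each genotype had 2 libraries: scs1-/-scs2a-/- (written scs1 scs2a here), ada2b-/-, hag1-/- and wild type Col-0. The hag1 and wild type libraries served to place the values, and they also entered the statistical model, where they helped to estimate the spread behind the p-values. The labels give no mutagen, allele or gene identifier for the mutations. They do not say whether the libraries of a genotype came from separate plants or cultures, so the p-values rest on differences between libraries that may be no more than technical.

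All these mutants concern SAGA, a conserved coactivator complex that is recruited to genes by transcription factors. In its acetyltransferase module, the adaptor ADA2B binds the acetyltransferase HAG1, also known as GCN5, and promotes its acetylation of histone H3, a mark of transcribed genes. Transcripts of SCS1 and SCS2A were not analysed here, since the labels pair them with no identifier. The comparison of scs1 scs2a with ada2b asks where loss of this pair of genes leaves a different transcriptome from loss of the adaptor.

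The libraries held 20570967 to 22344725 normalised counts each, and read depth itself is unknown. Between 4.51 and 5.59% of each library fell on its 10 highest genes. Of the members, 20358 had 10 or more in all 4 libraries of both mutants, 392 reached 10 only in both scs1 scs2a libraries and 58 only in both ada2b libraries. Just inside the limit, 148 members had a second highest value from 10 to under 11, and just outside it 150 genes had one from 9 to under 10. The median difference between the 2 libraries of a genotype was 0.105 on the log2 scale in scs1 scs2a and 0.106 in ada2b. Below, a level is a normalised count, values of a pair of libraries are given as replicate 1 and then replicate 2, and log2 fold changes are scs1 scs2a minus ada2b on the log2(value + 1) scale, ± SE. A gene passed when the adjusted p of limma, with the Benjamini-Hochberg method over 25459 genes, was under 0.05.

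The transcript of each mutated gene with an identifier was examined first. HAG1 (AT3G54610) had 131 and 133 in hag1, against 296 and 328 in wild type. In the 2 mutants compared it had 345 and 345 in scs1 scs2a and 394 and 436 in ada2b, and this difference did not pass (log2 fold change -0.27 ± 0.09, adjusted p = 0.0567). ADA2B (AT4G16420) had 692 and 711 in scs1 scs2a, against 567 and 613 in ada2b, with 708 and 712 in wild type. The ada2b libraries were thus below those of scs1 scs2a and wild type without losing the transcript, and where the mutation lies in the gene is not given in the sources used here. ADA2B passed as higher in scs1 scs2a (log2 fold change 0.25 ± 0.07, adjusted p = 0.0289), but not without scs1 scs2a replicate 1 (adjusted p = 0.0895), scs1 scs2a replicate 2 (0.127) or ada2b replicate 1 (0.153).

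Expression differed widely between both mutants, and most large differences were higher levels in scs1 scs2a. Of the 21421 members, 7287 (34.02%) passed, with 3515 (16.41%) higher and 3772 (17.61%) lower in scs1 scs2a. Differences of at least 2-fold were far less balanced, with 1237 members (5.775%) higher and 191 (0.8916%) lower, a ratio of 6.48. At 4-fold or more there were 225 higher and 29 lower. Most passing differences were small, and 59.4% of them were under 1.5-fold. The near-even split of all passing genes depended on the scaling: 48.2% of them were higher on the deposited values, 58.9% after median-ratio scaling (3806 higher, 2656 lower) and 68.3% after upper-quartile scaling (4113 higher, 1906 lower). Without scs1 scs2a replicate 1, scs1 scs2a replicate 2, ada2b replicate 1 and ada2b replicate 2 in turn, 2082, 2231, 2337 and 2381 members were higher and 1766, 1758, 1889 and 1705 lower. Without ada2b replicate 2, 117 members were at least 2-fold lower.

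The imbalance among large differences was strongest at low level, smaller at middle level and absent at high level, as the plot of fold change by level shows. Of 5340 members with a mean under 100 over the 4 libraries, 847 (15.9%) were at least 2-fold higher in scs1 scs2a and 54 (1.01%) at least 2-fold lower. Among 11297 members from 100 to under 1000 the numbers were 347 and 93. Among 4784 members at 1000 or more they were 43 and 44, so the excess was absent there. At that highest level, 30.9% of members passed as lower and 10.6% as higher at any size, whereas under 100 only 2.68% passed as lower and 23.8% as higher. The median log2 fold change was 0.28 under 100 and -0.10 at 1000 or more. These classes hold the 392 and 58 members that met the rule through only 1 mutant, whose direction the rule fixed. Of the 392, 278 passed as higher at any size, and of the 58, 18 passed as lower. They are also part of the total counts given before.

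**Figure D1:**
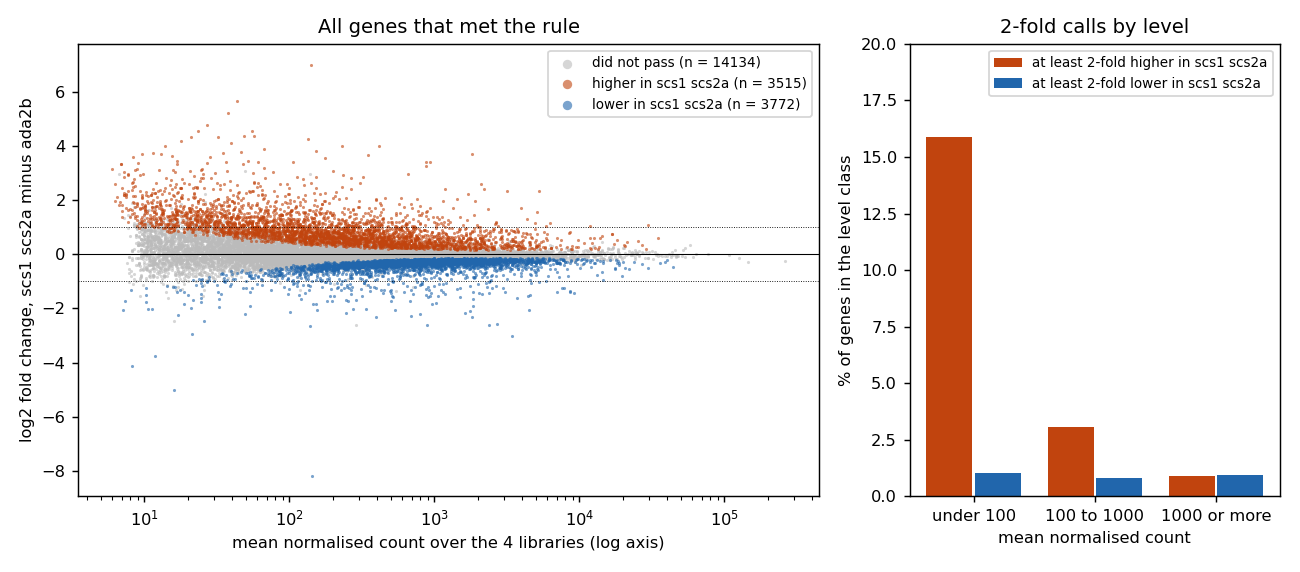
Left, each point is 1 of the 21421 members, with its mean normalised count over the 4 libraries of both mutants (log axis) and its log2 fold change, scs1 scs2a minus ada2b; dotted lines mark 2-fold. Right, bars give the percent of members in each level class that were at least 2-fold higher (15.9% under 100) or at least 2-fold lower (1.01% under 100) in scs1 scs2a.

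The genes that separated both mutants most sharply for their error came from several processes. DR4 (AT1G73330), of a protease inhibitor family and repressed by drought, had 3520.2 and 3219 in scs1 scs2a, against 239 and 279 in ada2b (log2 fold change 3.70 ± 0.09, adjusted p = 1.47e-06). CORI3 (AT4G23600), a cystine lyase induced by jasmonate, had 1782 and 1415 in scs1 scs2a and 174 and 154 in ada2b (3.27 ± 0.11, adjusted p = 5.92e-06). Neither gene was as low in any library outside ada2b, with 2211 or more for DR4 and 1415 or more for CORI3. TLL1, a lipase-like gene, had 3735 and 3466 in scs1 scs2a, against 545 and 664 in ada2b, and GH9B13, a glycosyl hydrolase, rose by 1.60 ± 0.06 on the log2 scale (adjusted p = 1.19e-05 each).

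On the lower side, EXPA1 (AT1G69530), an expansin that loosens the cell wall, had 4824 and 5180.2 in scs1 scs2a, against 13209.6 and 13803 in ada2b (log2 fold change -1.43 ± 0.06, adjusted p = 1.19e-05). Its hag1 and wild type libraries, at 4364 to 6619.7, stood with scs1 scs2a, so the ada2b libraries were the high ones. RVE2 (AT5G37260), a clock-related MYB factor, had 3398 and 3530.3 in scs1 scs2a and 7017 and 7003 in ada2b (-1.02 ± 0.05, adjusted p = 1.55e-05). BAM9 (AT5G18670), a beta-amylase family member, had 875 and 885 in scs1 scs2a and 1998 and 2205 in ada2b (-1.25 ± 0.06, adjusted p = 2.35e-05). RMA1, a RING-type ubiquitin ligase, and ATCTH, a CCCH zinc finger protein, were lower in scs1 scs2a, with log2 fold changes of -1.72 ± 0.10 and -1.74 ± 0.11. None of these 5 calls ended under any of the 14 alternatives run.

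**Figure D2:**
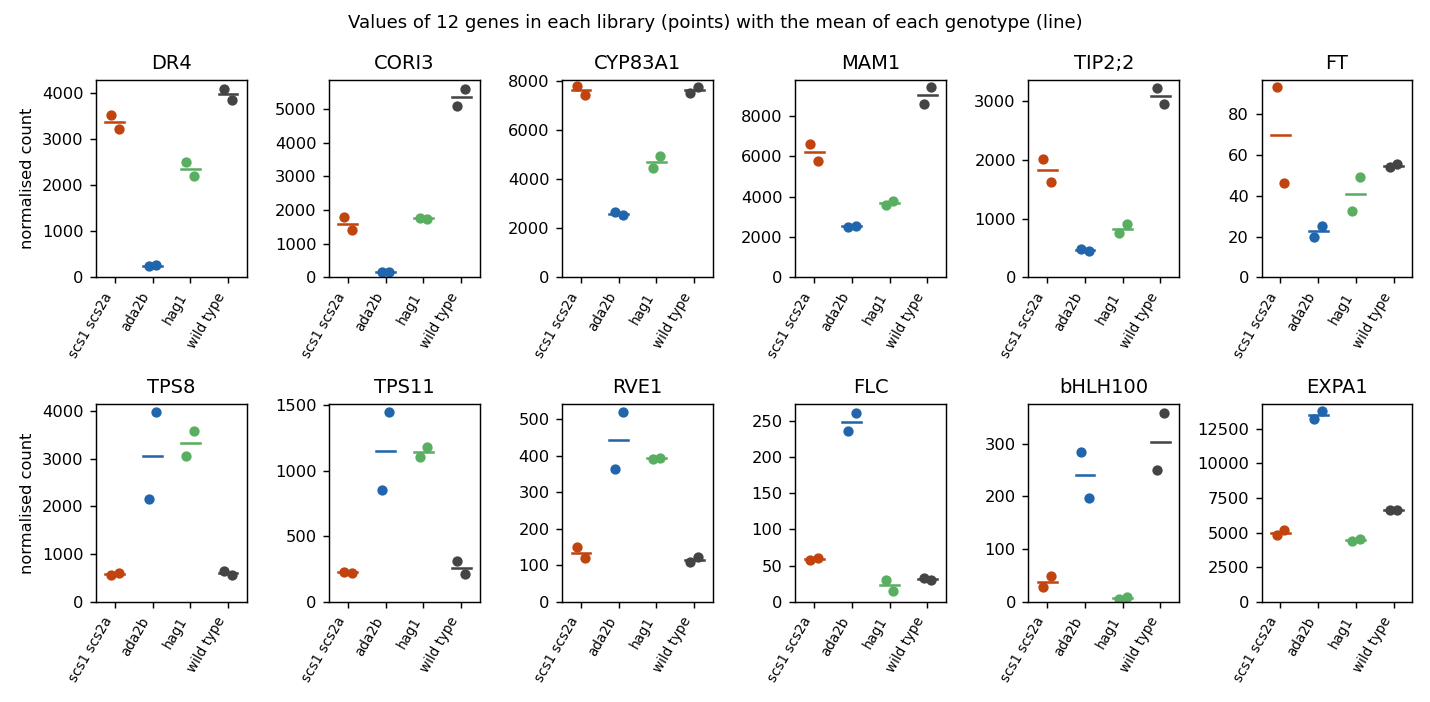
Points are normalised counts of 12 genes in each of the 8 libraries, in linear axes from 0, and lines are the mean of each genotype (n = 2). In the upper row scs1 scs2a lay above ada2b (DR4 3520.2 and 3219 against 239 and 279), and in the lower row below it (EXPA1 4824 and 5180.2 against 13209.6 and 13803).

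Promoters of 4 passing genes, RVE2 and BAM9 and the clock gene RVE1 and glucosinolate gene CYP83A1 described below, are shown because their levels moved in opposite directions while all hold the same element, the G-box. Each is the 250 bases before the RefSeq gene start in the TAIR10.1 assembly, 5′ to 3′ on the gene's strand, and capitals mark matches on either strand to CACGTG (G-box), ACGTG (ABRE core, part of every G-box), CCGAC (CRT/DRE), TTGAC (W-box), AAATATCT (evening element) and GNATATNC (P1BS). The RVE1, RVE2 and BAM9 promoters lie at chr5:5692993-5693242 (minus strand), chr5:14753089-14753338 (minus strand) and chr5:6225706-6225955 (plus strand). The CYP83A1 promoter lies at chr4:7992430-7992679 (minus strand).
RVE1, lower in scs1 scs2a: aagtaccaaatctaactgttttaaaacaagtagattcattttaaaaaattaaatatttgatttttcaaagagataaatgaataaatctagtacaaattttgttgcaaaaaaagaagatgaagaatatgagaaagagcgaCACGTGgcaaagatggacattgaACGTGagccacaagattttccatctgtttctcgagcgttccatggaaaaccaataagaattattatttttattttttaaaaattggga
RVE2, lower in scs1 scs2a: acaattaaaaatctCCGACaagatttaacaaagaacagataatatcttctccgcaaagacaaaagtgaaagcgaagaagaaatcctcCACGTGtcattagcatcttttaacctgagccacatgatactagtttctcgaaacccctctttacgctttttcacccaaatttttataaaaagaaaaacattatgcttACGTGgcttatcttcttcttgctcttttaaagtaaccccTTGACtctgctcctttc
BAM9, lower in scs1 scs2a: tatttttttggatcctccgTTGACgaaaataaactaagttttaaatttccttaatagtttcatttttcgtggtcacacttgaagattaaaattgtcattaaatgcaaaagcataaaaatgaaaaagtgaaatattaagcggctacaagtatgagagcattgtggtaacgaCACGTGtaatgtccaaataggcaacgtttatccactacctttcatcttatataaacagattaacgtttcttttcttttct
CYP83A1, higher in scs1 scs2a: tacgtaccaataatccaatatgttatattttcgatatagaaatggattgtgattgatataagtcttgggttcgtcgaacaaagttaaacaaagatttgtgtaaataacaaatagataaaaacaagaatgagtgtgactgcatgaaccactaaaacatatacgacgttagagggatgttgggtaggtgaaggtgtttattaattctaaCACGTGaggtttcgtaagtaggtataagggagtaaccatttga

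The G-box occurred in 11% of the promoters of the 191 genes at least 2-fold lower in scs1 scs2a, in 5.74% of those of the 1237 at least 2-fold higher, and in 6.85% of those of all members. The ABRE core stood in 33.5% of the first group, 26.4% of the second and 23% of all members. The evening element stood in 8.38, 4.93 and 4.73%, and P1BS, the site of the phosphate starvation factor PHR1, in 11, 6.22 and 5.37%. Mean GC content was 31.5, 30.2 and 31.9%. These shares were not tested, and a match describes letters, not binding.

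The clearest gene group was synthesis of aliphatic glucosinolates, the methionine-derived defence compounds of the Brassicaceae. Of 23 members on the list, 22 passed as higher in scs1 scs2a and none as lower, where 16.41% of all members were higher, and the median log2 fold change was 0.95 against -0.06 over all members. Their summed level was 57674 and 53466 in scs1 scs2a, against 29838 and 29921 in ada2b and 59944 and 61629.6 in wild type. In whole seedlings, fewer cells of a type and less RNA per cell cannot be told apart, here and below. Among the MYB regulators of the pathway, MYB28 had 1746 and 1639 in scs1 scs2a and 792 and 775 in ada2b (log2 fold change 1.11 ± 0.07, adjusted p = 5.55e-05). MYB29 had 488 and 412 in scs1 scs2a and 211 and 205 in ada2b (1.1 ± 0.14, adjusted p = 0.00121). Both regulators thus stood at about the same fold.

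Along the pathway, the methylthioalkylmalate synthases of chain elongation, MAM1 and MAM3, rose by 1.28 ± 0.08 and 1.45 ± 0.09 on the log2 scale (adjusted p = 4.7e-05 each). MAM1 had 6615 and 5753 in scs1 scs2a, against 2516 and 2558 in ada2b. BAT5, the plastid transporter of the chain-elongated keto acids, rose by 1.17 ± 0.07. In core synthesis, CYP79F1 rose by 0.95 ± 0.09, and CYP83A1 (AT4G13770) had 7779 and 7440.2 in scs1 scs2a, against 2659 and 2532 in ada2b (1.55 ± 0.06, adjusted p = 1.19e-05). The scs1 scs2a values of CYP83A1 lay just above and just below those of wild type, 7505 and 7743. Among the side-chain oxygenases, FMO GS-OX2 had 152 and 97.7 in scs1 scs2a, against 5.01 and 10.7 in ada2b and 445 and 567 in wild type (3.87 ± 0.46, adjusted p = 0.00077). FMO GS-OX5, the exception on the list, had 1055 and 1078 in scs1 scs2a and 1178 and 1165 in ada2b, and did not pass (adjusted p = 0.151). With 1 library left out in turn, 21 of the 23 passed each time.

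Indolic glucosinolate and tryptophan synthesis was less uniform, with 8 of 17 members higher (47.1%) and 1 lower (5.88%), and a median log2 fold change of 0.27. Of all members 16.41% were higher and 17.61% lower. The higher indolic genes included enzymes that modify the indole ring, with IGMT1 at 163 and 160.0 in scs1 scs2a, against 33 and 46.8 in ada2b. IGMT5 and CYP81F4 were up by 1.12 ± 0.09 and 0.87 ± 0.08. IGMT1 has near-identical sister genes, so its reads may be shared. In flavonoid synthesis 11 of 20 members (55%) were higher and none lower (median 0.51). Among them F3'H, a flavonoid hydroxylase, had 479 and 535 in scs1 scs2a and 259 and 219 in ada2b (1.08 ± 0.14, adjusted p = 0.00111). The flavonol regulator MYB11 had 11.5 and 13.4 in scs1 scs2a, against 2 and 1.94 in ada2b. It met the rule only through scs1 scs2a, so its direction was fixed by the rule. The lower indolic gene did not pass without either scs1 scs2a library. The flavonoid count was 4 without scs1 scs2a replicate 1, 4 without replicate 2, 7 without ada2b replicate 1 and 3 without ada2b replicate 2.

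The most uniform lower group was energy starvation, genes induced by darkness or sugar shortage, many of them through the kinase SnRK1 and the factor bZIP1. Of 27 members 20 were lower in scs1 scs2a (74.1%, against 17.61% of all members) and 1 was higher, with a median log2 fold change of -0.57. Their summed level was 29234 and 30457 in scs1 scs2a, against 49796 and 61280.2 in ada2b, 62106 and 60825 in hag1, and 23860 and 21963 in wild type. TPS8 (AT1G70290), a trehalose-phosphate synthase-like protein, had 563 and 599 in scs1 scs2a, against 2150.2 and 3977 in ada2b (log2 fold change -2.33 ± 0.24, adjusted p = 0.000374). The scs1 scs2a libraries lay beside wild type, at 652 and 556, and the ada2b libraries beside hag1, at 3063 and 3592. Of the same family, TPS11 had 231 and 220.0 in scs1 scs2a and 856 and 1448 in ada2b, and TPS9 fell by 1.38 ± 0.11 on the log2 scale.

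The regulator bZIP1 had 114 and 114 in scs1 scs2a, against 310.3 and 451 in ada2b (-1.70 ± 0.18, adjusted p = 0.000479). ASN1, the dark-induced asparagine synthetase, had 353 and 357 in scs1 scs2a and 694 and 632 in ada2b (-0.90 ± 0.14, adjusted p = 0.00267). DIN10, a raffinose synthase family gene named for its induction in the dark, fell by 1.34 ± 0.14, BT2, a BTB-TAZ adaptor, by 1.26 ± 0.10, and MCCB, of leucine breakdown, by 0.52 ± 0.05. The ada2b libraries were the higher pair for each of these genes. They did not overlap with those of scs1 scs2a, but this held for all 7287 passing members and for 15390 of all 21421 members. EXL4 was the exception, at 411 and 432 in scs1 scs2a and 346 and 347 in ada2b (0.28 ± 0.07, adjusted p = 0.0178), and it did not pass without either replicate of either mutant (adjusted p = 0.0506 to 0.0966). With 1 library left out in turn, 16 to 22 members of the list were lower.

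Touch and rapid stress genes respond to handling and wounding within minutes. Of 21 members 8 were lower (38.1%, against 17.61% of all members) and none higher (median log2 fold change -0.80). RAV1, a factor of the B3 family, had 409.6 and 485 in scs1 scs2a and 1054 and 1561 in ada2b (-1.52 ± 0.18, adjusted p = 0.000688). STZ, a zinc finger repressor, had 237 and 368 in scs1 scs2a and 552 and 1029 in ada2b and did not pass (adjusted p = 0.0563). This group varied within the genotypes as well: its summed level was 9554 and 12012 in scs1 scs2a, against 15618.5 and 24186.5 in ada2b. Its count of lower genes was 4 without scs1 scs2a replicate 1, 3 without ada2b replicate 2 and 1 in a fit of only the 4 libraries of both mutants.

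Aquaporins, the membrane water channels, moved almost as one. Of 17 aquaporins 16 were higher in scs1 scs2a (94.1%, against 16.41% of all members) and 1 was lower (median log2 fold change 0.78). The summed level of the aquaporins was 75543 and 70858 in scs1 scs2a, against 50266 and 52471 in ada2b and 116619 and 113854 in wild type. Among the vacuolar channels, TIP2;2 had 2016 and 1635 in scs1 scs2a, against 479 and 448 in ada2b (1.97 ± 0.11, adjusted p = 4.37e-05). TIP1;1 had 8855 and 8478 in scs1 scs2a and 3935 and 3919 in ada2b (1.14 ± 0.05, adjusted p = 1.55e-05). Both scs1 scs2a libraries lay between ada2b and wild type for these channels. Among those of the plasma membrane, PIP2;4 rose by 1.54 ± 0.16, while PIP2;6 was the lower one (-0.23 ± 0.06, adjusted p = 0.019). The PIP2;6 call ended after upper-quartile scaling, without scs1 scs2a replicate 1 (adjusted p = 0.0945), scs1 scs2a replicate 2 (0.0624) or ada2b replicate 2 (0.112). Several of the PIP genes are near-identical copies whose reads may be shared. In a fit of only the 4 libraries of both mutants 11 aquaporins were higher.

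Expansins and xyloglucan enzymes remodel the cell wall. Of 29 such genes 14 were higher (48.3%, against 16.41% of all members) and 2 lower (median log2 fold change 0.41). Their summed level went the other way, with 41486 and 42057 in scs1 scs2a, against 44923 and 46733.5 in ada2b. EXLB1 had 103 and 95.2 in scs1 scs2a, against 20 and 11.6 in ada2b, and 441 and 464 in wild type (2.61 ± 0.24, adjusted p = 0.00024). XTH17 had 178 and 243 in scs1 scs2a and 46 and 43.8 in ada2b (2.19 ± 0.23, adjusted p = 0.000435). The count of higher genes was 9 without scs1 scs2a replicate 1, and that of lower ones 1 without either scs1 scs2a library or ada2b replicate 2. EXPA1, described above, moved against the group.

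Cell division genes were mostly higher, by modest folds. Of 32 members 22 were higher (68.8%, against 16.41% of all members) and 1 was lower (median log2 fold change 0.53). CDC20.1, an activator of the anaphase-promoting complex in mitosis, had 426 and 398 in scs1 scs2a and 241 and 233 in ada2b (0.80 ± 0.07, adjusted p = 0.000254). CDKB2;2, a mitotic kinase, rose by 0.83 ± 0.10 and KNOLLE, the syntaxin of the cell plate, by 0.55 ± 0.06. CYCD3;1, a cyclin of entry into the cycle, had 394 and 389 in scs1 scs2a and 198 and 216 in ada2b (0.91 ± 0.07, adjusted p = 0.000128). The replication licensing gene MCM2 had 609 and 669.9 in scs1 scs2a and 643 and 631 in ada2b and did not pass (adjusted p = 0.981). CYCD2;1 was the lower one (-0.43 ± 0.10, adjusted p = 0.0122), a call that ended without scs1 scs2a replicate 1 (adjusted p = 0.0849), ada2b replicate 1 (0.0518) or ada2b replicate 2 (0.0673). With only the 4 libraries of both mutants, 13 genes of this list were higher.

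Of 24 flowering time genes 11 were higher in scs1 scs2a (45.8%) and 6 lower (25%), with a median log2 fold change of 0.23. Of all members 16.41% were higher and 17.61% lower. FLC (AT5G10140), the MADS-box repressor silenced by cold, had 57.4 and 61 in scs1 scs2a, against 236 and 261 in ada2b, 30.1 and 15.6 in hag1 and 32.6 and 29.9 in wild type (log2 fold change -2.05 ± 0.28, adjusted p = 0.00143). The ada2b libraries thus stood above all 6 others. TEM2, a repressor of FT, had 1094 and 1484 in scs1 scs2a and 3006 and 3959 in ada2b (-1.44 ± 0.17, adjusted p = 0.00082). FT, the mobile flowering signal, had 93.3 and 46.2 in scs1 scs2a and 20 and 25.3 in ada2b (1.5 ± 0.34, adjusted p = 0.0134), but did not pass without scs1 scs2a replicate 1 (adjusted p = 0.08) or ada2b replicate 1 (0.0763). SPL9, a factor of the adult phase, rose by 1.08 ± 0.15. SOC1, an integrator downstream of FT, had 274 and 208 in scs1 scs2a and 208 and 198 in ada2b and did not pass (adjusted p = 0.209). The count of higher genes was 3 without scs1 scs2a replicate 1, 7 without replicate 2, and 5 without either ada2b library.

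In the circadian clock, 9 of 26 members were lower (34.6%, against 17.61% of all members). The 4 higher ones were 15.4%, near the 16.41% of all members (median log2 fold change -0.23). Morning MYB genes were among the lower, with RVE1 (AT5G17300) at 149 and 119.8 in scs1 scs2a, against 364 and 520.1 in ada2b (-1.70 ± 0.17, adjusted p = 0.000376). LHY had 157 and 145 in scs1 scs2a and 236 and 267 in ada2b (-0.73 ± 0.12, adjusted p = 0.00326), while CCA1 had 30.7 and 29.5 in scs1 scs2a and 39 and 43.8 in ada2b and did not pass (adjusted p = 0.223). Of the evening genes, LUX had 817 and 822 in scs1 scs2a and 599.6 and 559.5 in ada2b (0.50 ± 0.07, adjusted p = 0.0016), and TOC1 did not pass (adjusted p = 0.65). No sampling hour is given in the labels. The count of lower genes was 5 without scs1 scs2a replicate 2, and that of higher ones 2 with any 1 library left out.

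Iron genes moved in both directions, 8 of 24 iron deficiency genes higher and 8 lower (33.3% each, against 16.41% and 17.61% of all members). The log2 fold change was negative for 15 of the 24 iron deficiency genes and their median was -0.28. Among the group Ib bHLH regulators 2 of 4 passed, both as lower. bHLH100 (AT2G41240) had 27.6 and 48.8 in scs1 scs2a, against 283 and 197 in ada2b, 6.29 and 8.83 in hag1 and 250.1 and 358 in wild type (log2 fold change -2.65 ± 0.32, adjusted p = 0.000836). bHLH101 had 28.7 and 28.6 in scs1 scs2a and 78.1 and 77.9 in ada2b (-1.41 ± 0.22, adjusted p = 0.00277). For both, ada2b was nearer to wild type than scs1 scs2a was. bHLH39 had 41.9 and 73.7 in scs1 scs2a and 115 and 85.5 in ada2b (adjusted p = 0.0573), and bHLH38 had 36.2 and 55.4 in scs1 scs2a and 82.1 and 54.4 in ada2b (adjusted p = 0.488), and neither passed.

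FRO2 and IRT1, genes of iron uptake at the root surface chosen after their values were seen, were higher. FRO2, the ferric reductase, had 382 and 449 in scs1 scs2a and 70.1 and 40.7 in ada2b (2.93 ± 0.56, adjusted p = 0.00642), and wild type varied from 68.8 to 291. IRT1, the iron transporter, had 1016 and 1123 in scs1 scs2a and 382 and 277 in ada2b (1.71 ± 0.41, adjusted p = 0.0168), with no call without scs1 scs2a replicate 1 (adjusted p = 0.0745), replicate 2 (0.0903) or ada2b replicate 2 (0.101). Both libraries of scs1 scs2a were above both of ada2b for these genes, a separation that every passing member showed. The IRT1 call also ended with no mean-variance trend (adjusted p = 0.0717). The nicotianamine synthase NAS2 had 48.9 and 42.8 in scs1 scs2a, against 1 and 0.971 in ada2b. CYP82C4, of coumarin synthesis under iron shortage, had 90 and 95.3 in scs1 scs2a, against 6.01 and 1.92 in ada2b and 15.4 and 104 in wild type (4.37 ± 0.79, adjusted p = 0.00493). NAS2 and CYP82C4 met the rule only through scs1 scs2a, so their direction was fixed by the rule. The count of higher iron deficiency genes was 5 without scs1 scs2a replicate 2 or ada2b replicate 2.

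Root markers stand beside these values. Of 15 that met the rule 3, SHR, GLP5 and NAXT1, were higher in scs1 scs2a and none was lower. That share, 20%, is near the 16.41% of all members. Of the 15 log2 fold changes, however, 14 were positive and 1 negative, with a median of 0.31 against -0.06 over all members. The summed level of the root markers was 62997 and 63412 in scs1 scs2a, against 57435 and 54231 in ada2b. None was under 1 in all 4 libraries, and the part of root content in the iron and transporter results was not tested. Of 9 seed storage markers none met the rule, and their sum was 18.4 and 0 in scs1 scs2a and 6.01 and 1.94 in ada2b. Of 7 floral organ markers 2 met it and neither passed. Of 9 shoot meristem markers 5 met it, with CLV1 higher (0.68 ± 0.07, adjusted p = 0.000474) and none lower. The log2 fold change was positive for 2 of the 5 and negative for 3, with a median of -0.31. The summed level of this list was 1275 and 1175 in scs1 scs2a, against 943 and 860 in ada2b. WUS and CLV3 were listed at 0 in all 4 libraries.

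Of 24 phosphate starvation genes 5 were higher (20.8%) and 6 lower (25%), shares near those of all members, 16.41% and 17.61%. PHO1, which loads phosphate into the xylem, had 1500.2 and 1373 in scs1 scs2a and 859 and 814 in ada2b (0.78 ± 0.06, adjusted p = 0.000145), and the uptake transporter PHT1;1 rose by 0.77 ± 0.12. The count of lower phosphate genes was 2 without scs1 scs2a replicate 1 and 1 without ada2b replicate 2, and that of higher ones was 3 without scs1 scs2a replicate 2. Of 22 nitrate genes 8 were higher (36.4%, against 16.41% of all members) and 4 lower. The share of lower nitrate genes was near the 17.61% of all members. NRT1.1, the nitrate transporter and sensor, had 5595 and 5307 in scs1 scs2a and 3190.3 and 3333 in ada2b (0.74 ± 0.08, adjusted p = 0.000549). NRT1.5, which loads nitrate into the xylem, had 1637 and 1218 in scs1 scs2a and 361 and 523 in ada2b (1.7 ± 0.19, adjusted p = 0.000549). Over the list 11 log2 fold changes were positive and 11 negative. The glutamine synthetase GLN1;1 rose by 0.91 (adjusted p = 0.000301). The nitrate reductase NIA2 fell by 0.47 ± 0.07. The named transporters thus lay above ada2b and this reductase below it, and the count of lower nitrate genes was 2 without scs1 scs2a replicate 1 or either ada2b library.

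Of 21 salicylic acid and defence genes 8 were higher (38.1%, against 16.41% of all members) and none lower (median log2 fold change 0.68). ACD6, a defence-promoting ankyrin protein, had 1728 and 2243 in scs1 scs2a and 320.3 and 429 in ada2b (2.41 ± 0.24, adjusted p = 0.000351). PR5, a thaumatin-like protein, had 169 and 130.2 in scs1 scs2a and 22 and 25.3 in ada2b (2.60 ± 0.24, adjusted p = 0.000261). ICS1, the enzyme that starts salicylic acid synthesis, had 342 and 227 in scs1 scs2a and 278 and 299.8 in ada2b and did not pass (adjusted p = 0.856). The count was 5 without scs1 scs2a replicate 1.

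Of 29 jasmonate genes 14 were higher (48.3%) and 3 lower (10.3%), with a median log2 fold change of 0.47. Of all members 16.41% were higher and 17.61% lower. VSP1, a storage protein induced by wounding, had 671 and 667 in scs1 scs2a and 257 and 174 in ada2b (1.66 ± 0.19, adjusted p = 0.000591). PR3, a chitinase, had 428 and 358 in scs1 scs2a and 76.1 and 64.2 in ada2b (2.47 ± 0.21, adjusted p = 0.000161), and the defensin PDF1.2 had 51.5 and 79.3 in scs1 scs2a and 5 and 2.9 in ada2b. PDF1.2 met the rule only through scs1 scs2a, so its direction was fixed by the rule. The master regulator MYC2 had 1140.2 and 944 in scs1 scs2a and 984 and 1126 in ada2b and did not pass (adjusted p = 0.971). The count of higher genes was 9 without scs1 scs2a replicate 1, and that of lower ones 1 without scs1 scs2a replicate 1, scs1 scs2a replicate 2 or ada2b replicate 2. The near-identical defensin genes PDF1.2, PDF1.2b and PDF1.3 may share reads.

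Of 20 abscisic acid genes 7 were higher (35%) and 3 lower (15%), and of 13 cold response genes 6 were higher (46.2%) and 2 lower (15.4%). Of all members 16.41% were higher and 17.61% lower, so the shares of lower genes were near that of all members. ERD10, a dehydrin that protects cells in cold and drought, had 2537 and 2783 in scs1 scs2a and 1332 and 1324 in ada2b (log2 fold change 1.0 ± 0.08, adjusted p = 0.00011). COR47, of the same family, had 4545 and 5073 in scs1 scs2a and 2729 and 2677 in ada2b (0.83 ± 0.07, adjusted p = 0.000136). Both were higher in both scs1 scs2a libraries, as such a separation held for every passing member. CYP707A2, which breaks down abscisic acid, had 32.7 and 21.8 in scs1 scs2a, against 5 and 1.93 in ada2b and 244 and 220.0 in wild type (2.72 ± 0.41, adjusted p = 0.00226). CYP707A2 met the rule only through scs1 scs2a, so its direction was fixed by the rule. RD26, a NAC factor induced by drought, went the other way with 265 and 221 in scs1 scs2a and 549.6 and 669 in ada2b (-1.32 ± 0.16, adjusted p = 0.00077). COR15A had 654 and 443 in scs1 scs2a and 473 and 406 in ada2b and did not pass (adjusted p = 0.503). The lower cold genes numbered 1 without either scs1 scs2a library or ada2b replicate 1, and 0 without ada2b replicate 2. The higher cold genes numbered 3 without scs1 scs2a replicate 1, scs1 scs2a replicate 2 or ada2b replicate 2. The higher abscisic acid genes numbered 2 without scs1 scs2a replicate 1 and 3 without ada2b replicate 2.

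None of 27 photosystem core and rubisco small subunit genes and none of 20 cytosolic ribosomal protein genes passed (median log2 fold changes 0.05 and -0.06). Of the photosystem core list 5 were higher after upper-quartile scaling and 3 without scs1 scs2a replicate 2, and of the ribosomal list 1 was lower without ada2b replicate 2. Of 20 light-harvesting antenna genes 4 were higher and 1 lower, the clearest being LHCB4.3 with 894 and 832 in scs1 scs2a and 318 and 283 in ada2b (1.52 ± 0.08, adjusted p = 2.35e-05). Without scs1 scs2a replicate 1 or ada2b replicate 1 it was the 1 antenna gene still higher, and no antenna gene was lower without scs1 scs2a replicate 2 or either ada2b library. Heat shock genes were higher in 4 of 20 members and lower in none. For both of these lists the share higher, 20%, was near the 16.41% of all members. Of the heat shock genes 2 were higher without scs1 scs2a replicate 1.

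Of 17 trichome and root hair fate genes 8 were higher (47.1%, against 16.41% of all members) and none lower (median log2 fold change 0.74). ETC1, a small MYB that represses trichomes, had 15.3 and 17.2 in scs1 scs2a and 3 and 2.92 in ada2b (2.12 ± 0.29, adjusted p = 0.00142). It met the rule only through scs1 scs2a, so its direction was fixed by the rule. The trichome count was 3 without either scs1 scs2a library and 5 without either ada2b library. Cytokinin response genes were higher in 4 of 11 (36.4%) and lower in none (median 0.40). The count of higher cytokinin genes fell whichever library of the mutants was left out. Iron storage genes were higher in 4 of 8 (50%) and lower in 1 (12.5%). The lower one was the ferritin FER1 (log2 fold change -0.28), a call that ended without either scs1 scs2a library or ada2b replicate 2.

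Several lists went both ways, where 16.41% of all members were higher and 17.61% lower. Of 14 wax genes 5 were higher and 5 lower, and CER6, which elongates very long fatty acids for wax, had 10454 and 11794 in scs1 scs2a and 17364 and 17510.2 in ada2b (-0.65 ± 0.06, adjusted p = 0.000347). Of 18 starch genes 4 were higher and 6 lower, and BAM3, a plastid beta-amylase, had 15300.1 and 15412 in scs1 scs2a and 10091 and 10027 in ada2b (0.61 ± 0.05, adjusted p = 0.000157). Both genes had these directions with no overlap between the mutants, as did every passing member. Of 15 senescence genes 3 were higher and 4 lower, and ORE1, a NAC factor that promotes leaf ageing, had 150.4 and 150.5 in scs1 scs2a and 327 and 366 in ada2b (-1.20 ± 0.11, adjusted p = 0.000206). Of 16 gibberellin and brassinosteroid genes 4 were higher and 4 lower, with GA3OX1, of gibberellin synthesis, at 173 and 155 in scs1 scs2a and 306 and 330.0 in ada2b. Of 19 ethylene genes 5 were higher and 7 lower, and of 23 early auxin genes 4 and 4. These small counts moved with 1 library left out, to 2 of 5 higher wax genes without any 1 library, 1 of 6 lower starch genes without scs1 scs2a replicate 2, 0 of 5 higher ethylene genes without scs1 scs2a replicate 2 or ada2b replicate 2, and 1 of 4 higher auxin genes without either scs1 scs2a library. Of the senescence genes 1 was lower without scs1 scs2a replicate 2 and 2 without scs1 scs2a replicate 1 or ada2b replicate 2, and 1 was higher without ada2b replicate 1.

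Chromatin regulators differed little in size. Of 22 SAGA subunit genes 6 were lower (27.3%) and 1, ADA2B, was higher, none by 2-fold (median log2 fold change -0.21). Of all members 17.61% were lower. By level this share was 19.1% from 100 to under 1000 and 30.9% at 1000 or more, each with a median of -0.10. TAF6 fell by 0.29 ± 0.06 (adjusted p = 0.0074), with 626 and 601 in scs1 scs2a and 742 and 763 in ada2b. The count of lower subunits was 3 after upper-quartile scaling, 3 without either scs1 scs2a library and 2 without ada2b replicate 2. Of 24 other histone acetyltransferase and deacetylase genes 10 were lower (41.7%) and none higher (median -0.22). HDA8, a deacetylase, had 610.2 and 584 in scs1 scs2a and 845 and 827 in ada2b (-0.49 ± 0.06, adjusted p = 0.000758). Their count was 4 after upper-quartile scaling, 2 without scs1 scs2a replicate 2, 5 without ada2b replicate 1 and 3 without ada2b replicate 2.

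**Figure D3:**
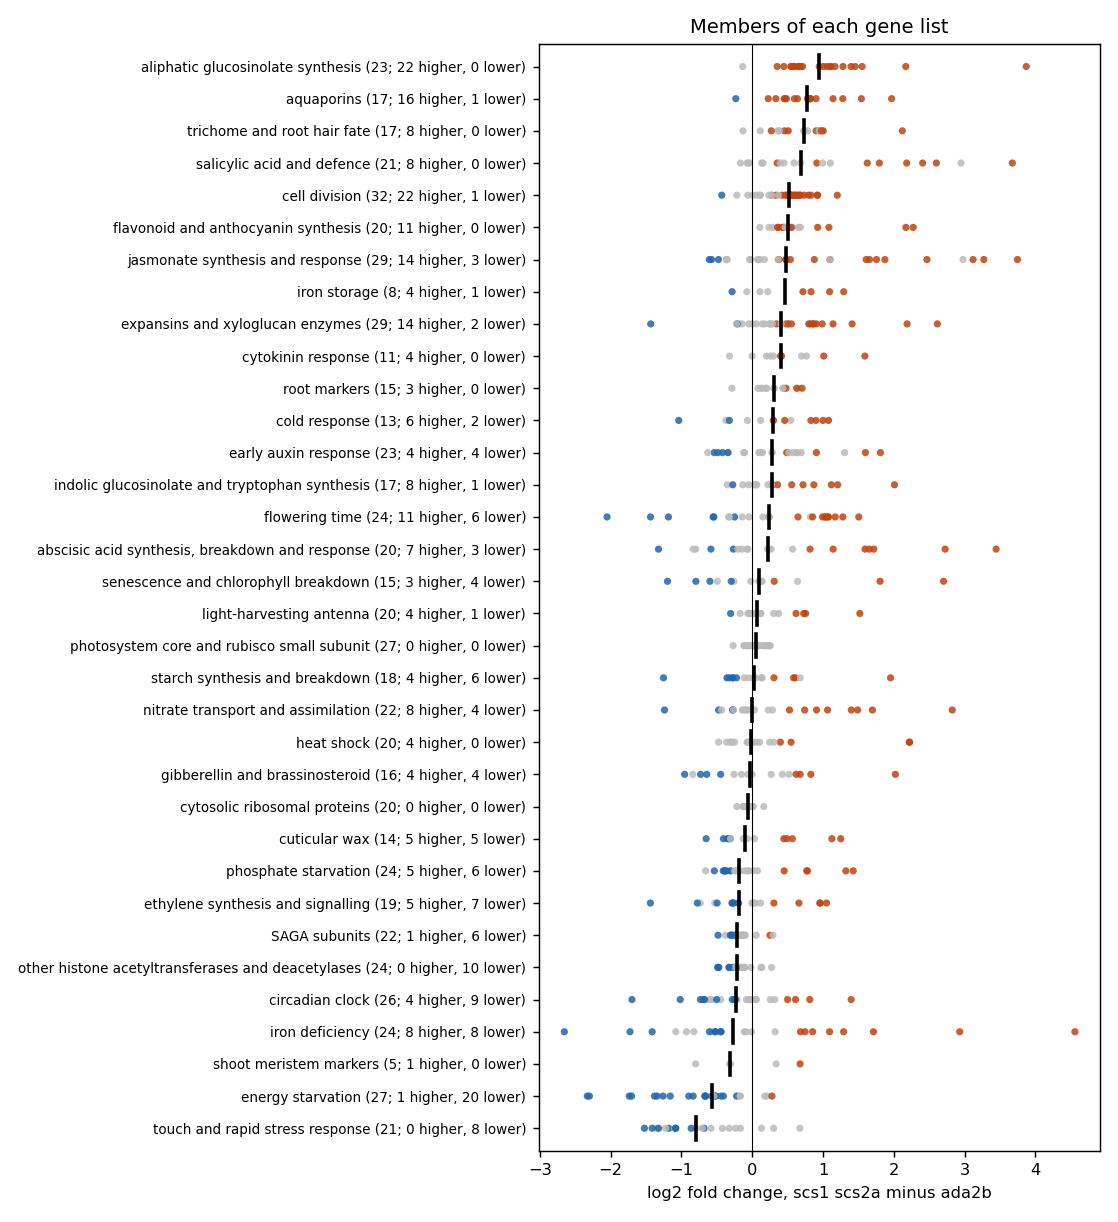
Each point is the log2 fold change, scs1 scs2a minus ada2b, of 1 member of a list; points in orange passed as higher, in blue as lower, in grey did not pass, and black bars are list medians. Labels give the number of members that met the rule and how many were higher and lower; lists run from aliphatic glucosinolates (median 0.95) at the top to touch genes (-0.80) at the bottom.

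Among genes with large differences, wild type was mostly nearer to scs1 scs2a than to ada2b. Of the 1237 genes at least 2-fold higher in scs1 scs2a, the wild type mean was nearer to scs1 scs2a than to ada2b in 91.8%. In 67% of them the wild type mean lay beyond the scs1 scs2a mean, so that the scs1 scs2a mean was on the ada2b side of wild type. This count took differences of any size. Their median level relative to wild type was -0.32 on the log2 scale in scs1 scs2a, -1.76 in ada2b and -0.70 in hag1. Of the 191 genes at least 2-fold lower, wild type was nearer to scs1 scs2a in 89% and beyond it in 61.3%, with medians of 0.19 in scs1 scs2a, 1.65 in ada2b and 1.41 in hag1. The hag1 mean was nearer to scs1 scs2a in 69.2% of the first group and 29.8% of the second. The genes were chosen on the difference between both mutants, so these are descriptions with no test, and each median uses the same wild type libraries.

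**Figure D4:**
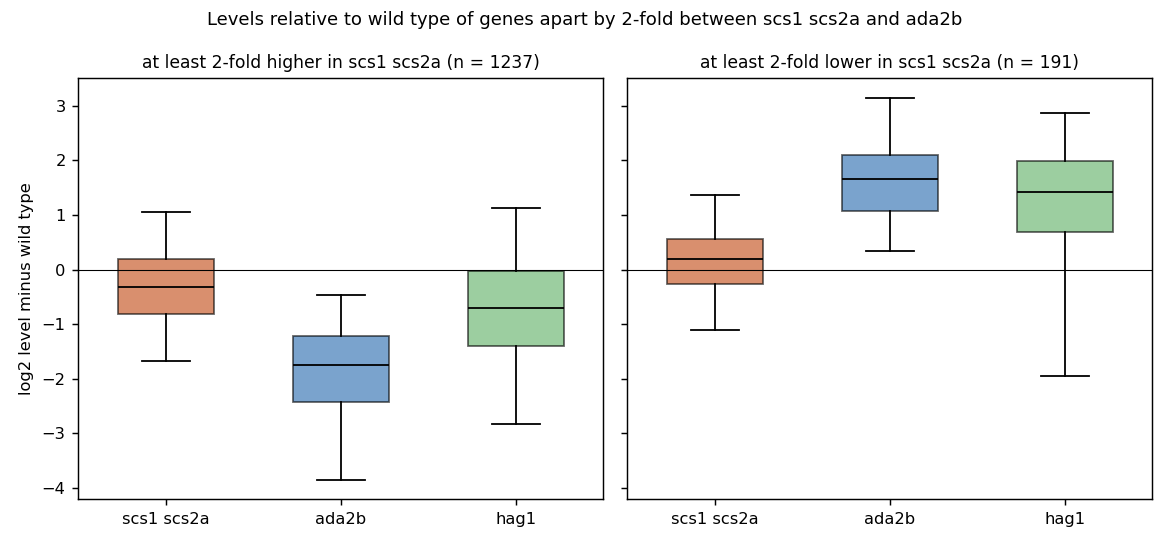
Boxes show the log2 level minus wild type in scs1 scs2a, ada2b and hag1 for the 1237 genes at least 2-fold higher (left) and the 191 at least 2-fold lower (right) in scs1 scs2a; lines are medians, boxes quartiles and whiskers the 5th and 95th percentiles. The scs1 scs2a medians (-0.32 and 0.19) lie nearest to 0, the level of wild type.

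A few genes were near 0 in one mutant and clearly present in the other, with 3 or less in both libraries of one and 20 or more in both of the other. Each of them met the rule only through the mutant where it was present, so its direction was fixed by the rule. In ada2b there were 11, of which 9 had 20 or more in both wild type libraries. AT4G33720, annotated as a protein of the CAP superfamily, had 401 and 159.7 in scs1 scs2a, against 1 and 0.971 in ada2b and 2011 and 1893 in wild type. MRN1, an enzyme of triterpene synthesis, had 33.9 and 115 in scs1 scs2a, against 2 and 0 in ada2b. STS, a raffinose family synthase, had 36.5 and 22.7 in scs1 scs2a and 2 and 0.965 in ada2b.

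In scs1 scs2a there were 2 such genes, both of uncharacterized proteins, which met the rule only through ada2b. AT1G64795 was listed at 0 in both scs1 scs2a libraries, against 276 and 299 in ada2b, 1.05 and 0.978 in hag1 and 353 and 339 in wild type, at least 92.1-fold lower in scs1 scs2a than in ada2b with 3 counts per library as the floor. AT2G11405 was listed at 0 in both scs1 scs2a libraries, against 25 and 39 in ada2b, and at 0 in both wild type libraries. Each of these genes thus had levels in hag1 near those of scs1 scs2a, not of ada2b.

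Among named genes with the largest rises, MRN1, PDF1.3, NAS2, CYP82C4, GLP4, CSLB03, PCC1 and DR4 kept their calls under each alternative that kept both libraries of each mutant. FMO GS-OX2 and PDF1.2 did so too. Of these, at least MRN1, NAS2, CYP82C4 and PDF1.2 met the rule only through scs1 scs2a, which fixed their direction. CSLB03, a cellulose synthase-like gene, had 297 and 271 in scs1 scs2a, against 13 and 28.3 in ada2b. PCC1, a gene under pathogen and clock control, had 536 and 757 in scs1 scs2a, against 34 and 70.3 in ada2b. LURP1 and PCR1 were less secure: LURP1 did not pass without scs1 scs2a replicate 2 (adjusted p = 0.0814), and PCR1 not without scs1 scs2a replicate 1 (0.209), replicate 2 (0.0531) or ada2b replicate 1 (0.199).

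Among the largest falls, ESE3, an ethylene- and salt-inducible factor, had 102 and 161 in scs1 scs2a, against 559 and 762 in ada2b, 195 and 207 in hag1 and 131 and 157 in wild type (-2.34 ± 0.22, adjusted p = 0.000274). OXS3, a gene of oxidative stress tolerance, had 369 and 546 in scs1 scs2a and 1389 and 1780.4 in ada2b (-1.81 ± 0.17, adjusted p = 0.00029). Both ada2b libraries were the highest of all 8 for these genes. CYP89A6 and PRX52 did not hold with a library left out: CYP89A6 had an adjusted p of 0.103 to 0.166 without each of the 4, and PRX52 of 0.0593 without scs1 scs2a replicate 1 and 0.0766 without ada2b replicate 2.

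Passing genes lay on all 5 chromosomes. By chromosome, 32.9 to 35.5% of members passed, and 5.12 to 6.97% were at least 2-fold higher. In 212 windows of 100 consecutive members, 14 to 49 passed with a median of 34, and 0 to 18 were at least 2-fold higher. The window with 18 ran from AT4G22320 to AT4G23493, and the one with 14 passing genes from AT2G08135 to AT2G09975. Whether windows differ more than an even spread gives was not tested. No window held more than 1 of the 11 genes near 0 in ada2b.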

How the data were processed

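The authors deposited 1 table of normalised counts per gene, a signal that is not in whole numbers, for 8 libraries. Whole reads could not be recovered from them, so no count model was run. Per the submitters' processing notes, the submitters used HISAT2, edgeR and the TAIR10 build. No counting tool, annotation or strand setting is given there, so reads of overlapping or antisense genes may be mixed. Total normalised counts were even, and read depth itself is unknown.

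A linear model of log2(value + 1) was fitted by limma 3.58.1 (R 4.3.3), with genotype as the only term over all 8 libraries and a mean-variance trend. The fit left 4 residual degrees of freedom and 4.42 prior ones. The 25459 genes with 1 or more in at least 2 libraries were tested, and p-values are two-sided. The procedure was tested on simulated data.

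Members, 32 gene lists of 713 genes and 4 marker lists of 41 genes were chosen with earlier results of these data known. Genes were named by rule: HAG1 and ADA2B, the 12 largest changes each way with a symbol and a mean of 20 or more, up to 4 passing genes per list by adjusted p, and the 5 smallest adjusted p each way. A further 34 genes, besides the markers listed at 0, were chosen after their values were seen. Names and promoters come from RefSeq, TAIR10.1, matched by locus identifier. No column was left unused. The alternatives were other scalings, filters, pseudocounts, samples, a replicate block, no trend, and each library left out.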

Additional observations from a re-analysis of the deposited data

How the results depend on the processing

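No passing named gene changed sign under the 14 alternatives, but summaries near 0 did. The median log2 fold change of all members was -0.06, and 0.02 after upper-quartile scaling. List medians that changed sign were those of antenna (0.07, and -0.04 without scs1 scs2a replicate 1), photosystem core (0.05 and -0.03, same setting), starch (0.02, and just below 0 in that setting), senescence (0.09, and -0.05 without ada2b replicate 1), heat shock (-0.02, and 0.06 after upper-quartile scaling), gibberellin and brassinosteroid (-0.03 and 0.05, same scaling) and ribosomal proteins (-0.06 and 0.02, same scaling). Flowering genes numbered 11 higher and 6 lower, 3 and 4 without scs1 scs2a replicate 1, and 2 and 4 with only 4 libraries. With only the 4 libraries of both mutants, 2004 members were higher and 1872 lower, 815 of them at least 2-fold higher and 125 at least 2-fold lower. With 1 library left out in turn, 2082 to 2381 were higher, 1705 to 1889 lower and 117 to 208 at least 2-fold lower. A fit with no mean-variance trend left 2049 lower. The fits without libraries use fewer samples, and beyond that the cause was not tested. Upper-quartile scaling, which shifted the median as above, left 1906 lower. Replicate numbers did not pair the samples by the measure used (correlation of the replicate differences of scs1 scs2a and ada2b 0.074). With the replicate block 3314 members were higher and 3366 lower, 1213 and 196 of them by at least 2-fold. Of 148 named passing genes, 105 passed under every alternative and 43 did not pass in at least 1. DESeq2 and edgeR were not run, because the values are not counts.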

Other observations

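Across all annotated promoters of 250 bases the G-box occurred in 5.37%, the ABRE core in 20.7%, the evening element in 4.33% and P1BS in 5.27%, against 6.85, 23, 4.73 and 5.37% for members. AT1G31690, a copper amine oxidase family gene near 0 in ada2b, had 89.1 and 83.8 in scs1 scs2a, against 2 and 0 in ada2b, 7.32 and 8.83 in hag1, and 3284 and 3579.6 in wild type. All of the mutants were thus far below wild type for this gene. It met the rule only through scs1 scs2a, so its direction against ada2b was fixed by the rule. With 2 libraries per genotype, spread was estimated largely by pooling over genotypes and genes, and small differences rest on that estimate.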
